A study of Mus musculus with 31 samples.

Results

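Splicing of mouse transcripts is carried out by several families of proteins, and 61 genes of these families were followed here across 31 arrays of embryonic stem (ES) cells and embryoid bodies (EBs). They are all genes whose symbol begins with Srsf, Sf3a, Sf3b, Hnrnp, Hnrp, Snrp, Prpf, Lsm or U2af (followed by a number for Srsf, Prpf and Lsm), together with Smndc1, among the 8251 genes that have a probe set with exactly 1 gene symbol. The 61 symbols are carried by 80 probe sets, and the brightest of a gene's probe sets, by the mean of the 31 arrays, stands for it. They comprise 16 hnRNP genes, 9 SR protein genes, 8 genes of small nuclear ribonucleoprotein (snRNP) proteins, 8 LSm genes, 8 PRPF genes, 8 genes of SF3A and SF3B subunits, 3 U2AF genes and Smndc1. All but Smndc1 were taken by this name pattern, which was chosen with earlier results of these data known. Smndc1 lies outside the name pattern, and its large difference from sorted cells was already known when it was added. Its difference from sorted cells is therefore given as a description, although Smndc1 is included in the counts of members.

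The cells were B6 mouse ES cells grown on mouse embryonic feeders in 15% FCS with LIF, the cytokine that keeps mouse ES cells undifferentiated. The arrays fall into 5 groups. Day 0 is covered by 6 arrays of ES cells sorted by FACS on Oct4-GFP, a reporter of the pluripotency gene Pou5f1, and by 6 arrays of feeder-depleted ES cells cultured on gelatin. EBs, which are aggregates that differentiate spontaneously, were started from the gelatin cells in nonadherent dishes without LIF and were profiled at day 4 (7 arrays), day 8 (6 arrays) and day 14 (6 arrays). The sources used here name no other genotype or agent, and the sort is the treatment by which the sorted cells differ from the gelatin cells in the labels. An EB is a mixture of cell types, so in these bulk samples fewer cells of a type and less RNA per cell cannot be told apart.

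Introns are removed by the spliceosome, which is built from snRNPs. A ring of Sm proteins (SNRPB, SNRPD3, SNRPE, SNRPG and others) surrounds most of the small nuclear RNAs, and a ring of LSm proteins surrounds the U6 RNA. U2AF and the SF3A and SF3B complexes select the end of the intron and its branch site, and PRPF proteins assemble and rearrange the U4, U5 and U6 particles. SR proteins and hnRNPs bind the pre-mRNA and respectively tend to promote or repress the use of exons, and both are known regulators of alternative splicing during differentiation.

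Some facts about the arrays bear on every value below. Signal is the dChip intensity on a linear scale, and no member fell to the floor of 59.59 signal units on any array; 2 members, Hnrnpu and Prpf39, lie in the dimmest 40% of probe sets. Over the probe sets that are not members, arrays 6 and 7 stood apart from the other day 4 arrays, gelatin arrays 3, 4 and 6 from gelatin arrays 1, 2 and 5, sorted array 5 from the other sorted arrays, and day 8 arrays 1, 3 and 5 from arrays 2 and 4, with array 6 between them. The ratio of the 3' to the 5' probe set of the Gapdh control, a sign of RNA quality and of amplification, was 3.48 to 6.85 on the gelatin arrays and 2.76 to 3.09 on the sorted arrays, with no overlap, and in the EBs it was 2.24 to 4.40 (day 4), 2.11 to 2.61 (day 8) and 2.06 to 2.68 (day 14). The summed signal of 8 pluripotency markers had a median of 42712 in sorted cells and 6547 at day 14, with Esrrb near background in every group, whereas the medians for 8 fibroblast markers were 7239 and 31746 and those for 7 visceral endoderm markers 1711 and 36994. By group mean, Thy1 and S100a4 of the fibroblast list were lower at day 14 than in sorted cells. The part of these changes in cell make-up in the results below was not tested.

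At day 14, genes of the core particles that passed were mostly lower than in sorted cells and hnRNP genes that passed were mostly higher. Of the 61 members, 13 were higher and 16 lower (limma, Benjamini-Hochberg adjusted p under 0.05 over 12422 probe sets), and 32 did not pass. Among all 8251 genes 27% were higher and 24.4% lower, so the members as a whole changed about as often as other genes, and their median log2 change was 0.02. The hnRNP genes had 7 members higher and 2 lower of 16, while the snRNP and LSm genes taken as one list had 1 higher and 9 lower of 16; no test between families was made. Counted whether or not they passed, as in all such counts below, 9 members lay above and 12 below the sorted arrays without any overlap, where the shares among all genes were 19.7% and 14.7%. Median centring of the arrays shifted the median log2 change over the whole array to -0.11, and 12 members were then higher and 21 lower.

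**Figure D1:**
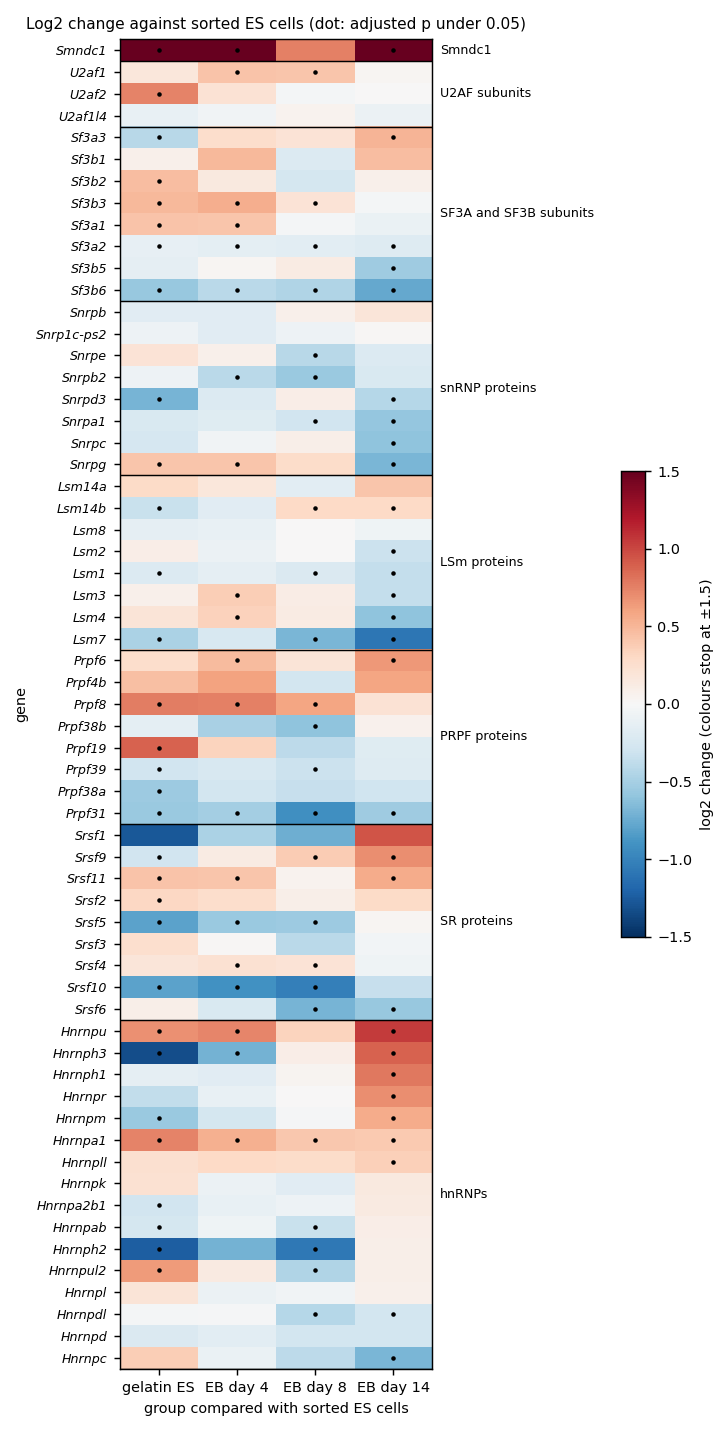
Log2 change of each of the 61 members (rows, grouped by family) against sorted ES cells for gelatin ES cells and for EBs at days 4, 8 and 14 (columns); red is higher, blue is lower, colours stop at 1.5 in either direction and a dot marks an adjusted p under 0.05. At day 14 red prevails among the hnRNP rows, with 7 higher and 2 lower, and blue among the snRNP and LSm rows, with 1 higher and 9 lower.

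The promoters of 53 of the 61 members were found in the RefSeq promoter table of mouse build GRCm38.p6, as windows from 250 bases before to 50 bases after the transcript start. The windows were searched on both strands for 6 motifs chosen after the windows had been looked at, so the shares are descriptions. The ETS family core CCGGAAG was present in 17 of 53 windows (32.08%), against 15.72% of the genes on the array and 9.12% of all promoters. The site of nuclear respiratory factor NRF1, GCGCANGCG, was present in 13 windows (24.53%), against 12.14% and 6.47%. The palindrome CTCGCGAG was present in 5 windows (9.43%), against 1.7% and 0.96%. CCAAT was in 25 windows (47.17%, against 38.26% of the genes on the array), TATAAA in 5 (9.43% against 10.39%) and CACGTG in 4 (7.55% against 9.95%). Of the members that passed at day 14, the ETS core was in 3 of the 12 matched windows of higher genes and 4 of the 13 of lower genes, and the NRF1 site in 4 of 12 and 4 of 13, and no motif contains another. The windows below belong to members the results turn on: Snrpg and Snrpc, which fell at day 14, carry the ETS core, Srsf9 and Hnrnpm, which rose, carry the NRF1 site, and Smndc1 carries the palindrome at 2 places; capitals mark the motif. Snrpg lies at chr6:86371290-86371589 (plus strand), Snrpc at chr17:27839837-27840136 (plus strand), Srsf9 at chr5:115326927-115327226 (plus strand), Hnrnpm at chr17:33685409-33685708 (minus strand) and Smndc1 at chr19:53390585-53390884 (minus strand), and each is printed in the direction of its gene.
Snrpg: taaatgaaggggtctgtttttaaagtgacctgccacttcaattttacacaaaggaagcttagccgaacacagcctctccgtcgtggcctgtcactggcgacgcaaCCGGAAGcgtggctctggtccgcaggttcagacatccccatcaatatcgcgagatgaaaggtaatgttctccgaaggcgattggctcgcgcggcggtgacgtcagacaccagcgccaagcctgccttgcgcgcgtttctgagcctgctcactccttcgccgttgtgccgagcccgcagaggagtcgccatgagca
Snrpc: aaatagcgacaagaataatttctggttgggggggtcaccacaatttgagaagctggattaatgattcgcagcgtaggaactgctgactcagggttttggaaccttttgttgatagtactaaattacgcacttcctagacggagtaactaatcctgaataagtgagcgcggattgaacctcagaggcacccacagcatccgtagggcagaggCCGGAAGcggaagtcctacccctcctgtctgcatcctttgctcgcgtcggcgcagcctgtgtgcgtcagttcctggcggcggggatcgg
Srsf9: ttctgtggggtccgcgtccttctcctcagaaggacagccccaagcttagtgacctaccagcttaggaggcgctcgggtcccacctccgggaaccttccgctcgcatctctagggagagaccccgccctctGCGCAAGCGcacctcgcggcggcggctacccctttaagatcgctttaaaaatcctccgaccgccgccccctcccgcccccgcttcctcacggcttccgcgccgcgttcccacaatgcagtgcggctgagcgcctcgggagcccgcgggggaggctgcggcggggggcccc
Hnrnpm: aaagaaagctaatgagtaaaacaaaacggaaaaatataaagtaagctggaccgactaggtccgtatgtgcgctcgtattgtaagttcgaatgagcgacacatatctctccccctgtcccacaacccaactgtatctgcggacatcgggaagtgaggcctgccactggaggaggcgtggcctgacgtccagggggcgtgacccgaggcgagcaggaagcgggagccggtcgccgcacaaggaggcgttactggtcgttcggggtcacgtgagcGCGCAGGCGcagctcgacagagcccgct
Smndc1: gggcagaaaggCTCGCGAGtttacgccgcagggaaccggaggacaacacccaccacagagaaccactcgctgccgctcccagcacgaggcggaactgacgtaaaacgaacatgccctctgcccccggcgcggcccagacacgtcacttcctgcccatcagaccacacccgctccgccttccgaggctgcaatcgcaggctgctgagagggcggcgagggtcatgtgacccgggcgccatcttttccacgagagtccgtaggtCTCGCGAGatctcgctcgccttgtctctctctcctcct

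A part of the core snRNP genes fell at day 14. Of the 8 genes of this list, 4 were lower and none was higher against sorted cells (24.4% and 27% of all genes), with a median log2 change of -0.33. Snrpg, which encodes the Sm protein G, had a signal of 3423 to 4113 (median 3612) in sorted cells, 3988 to 5489 (median 5126) on gelatin, 3923 to 5978 (median 4873) at day 4, 3595 to 5346 (median 4481) at day 8 and 1897 to 2841 (median 2251) at day 14. Every day 14 array was below every array of the other groups. Its log2 change against sorted cells was -0.68 ± 0.11 (± SE, adjusted p = 1.03e-05), whereas at day 4 it was 0.41 ± 0.11 (adjusted p = 0.00585). The difference between day 14 and day 4 itself, a comparison added after the values had been seen, was -1.09 ± 0.11 (adjusted p = 3.87e-09).

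Snrpc encodes the U1 particle protein that helps to recognise the start of the intron. Its signal was 1332 to 1996 (median 1629) in sorted cells, 1065 to 1511 (median 1443) on gelatin, 1282 to 2174 (median 1429) at day 4, 1467 to 1987 (median 1779.7) at day 8 and 916 to 1243 (median 1081) at day 14. The day 14 arrays lay below the sorted arrays without overlap, and the log2 change was -0.61 ± 0.13 (adjusted p = 0.000221), whereas the values at day 4 (-0.05 ± 0.12) and day 8 (0.09 ± 0.13) did not pass. Snrpa1, a protein of the U2 particle, went from 2553 to 3193 (median 2859) in sorted cells to 1419.7 to 2323 (median 2064) at day 14, again without overlap (-0.58 ± 0.10, adjusted p = 3.43e-05). Its U2 partner Snrpb2 was lower at day 4 (-0.41 ± 0.10) and day 8 (-0.55 ± 0.11) and did not pass at day 14 (-0.23 ± 0.11, adjusted p = 0.0727); its second probe set did not pass at day 4 (0.17) and was lower at days 8 and 14, and averaging both lost the day 4 call (-0.12, adjusted p = 0.417). The Sm protein gene Snrpd3 was lower at day 14 (-0.43 ± 0.11, adjusted p = 0.00207) with signals of 3469 to 4898 (median 4412) against 5268 to 6631 (median 5671). Against gelatin cells it did not pass at day 14 (0.26). Snrpb, Snrpe and the pseudogene Snrp1c-ps2 did not pass at day 14.

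Of the measured LSm genes whose products enter the ring around U6, most were lower at day 14. The products of all of them except Lsm8 also enter the cytoplasmic ring, so these falls cannot be assigned to the U6 ring. Of the 5 measured (Lsm2, Lsm3, Lsm4, Lsm7 and Lsm8), 4 were lower at day 14 against sorted cells and none was higher (24.4% and 27% of all genes). Their median log2 change was -0.36, and Lsm8 did not pass. The call of Lsm2 (-0.32 ± 0.13, adjusted p = 0.0425) was marginal: it was lost in 9 of 12 fits that each left out 1 array (adjusted p up to 0.115), the exceptions being those without sorted array 1, 5 or 6, and with the floor at the 25th percentile (adjusted p = 0.051). At day 4 none of these 5 was lower and 2 were higher (14% and 12.1% of all genes). Lsm4 had a signal of 3955 to 4639 (median 4219) in sorted cells, 4223 to 5283 (median 4879.7) on gelatin, 4879 to 5862 (median 5369) at day 4, 3396 to 5714 (median 4966) at day 8 and 2236 to 3339 (median 2831) at day 14. Its day 4 arrays were all above the sorted arrays and its day 14 arrays all below them, with log2 changes of 0.35 ± 0.10 (adjusted p = 0.0122, and 0.0584 after quantile normalization) and -0.61 ± 0.11 (adjusted p = 2.63e-05). At day 8 arrays 1, 3 and 5 read 5346, 5714 and 5479 and arrays 2, 4 and 6 read 3718, 3396 and 4586, following the division of that group described above.

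Lsm7 showed the largest fall of any member at day 14 against sorted cells. Its signal was 2634 to 3283 (median 2945) in sorted cells, 1710.2 to 2367 (median 2184) on gelatin, 1817 to 3663 (median 2502) at day 4, 1346 to 2347 (median 1910.4) at day 8 and 1098 to 1813 (median 1434) at day 14. It was already lower on gelatin (-0.47 ± 0.14, adjusted p = 0.0101). The sorted arrays lay above all arrays of days 8 and 14, and the log2 changes were -0.68 ± 0.14 at day 8 (adjusted p = 0.000501) and -1.09 ± 0.14 at day 14 (adjusted p = 5.02e-07). Lsm3 was higher at day 4 (0.36 ± 0.08, adjusted p = 0.00181) and lower at day 14 (-0.36 ± 0.09, adjusted p = 0.000917), and the day 14 minus day 4 difference was -0.73 ± 0.08. Outside the U6 ring, Lsm1, whose product marks the cytoplasmic ring that acts in mRNA decay, was lower at day 14. Lsm14b, whose product acts in translational control in processing bodies and which belongs to neither ring, was higher (0.30 ± 0.10, adjusted p = 0.01), a call lost with median centring (adjusted p = 0.0906) and with quantile normalization (0.115). Lsm14a did not pass.

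**Figure D2:**
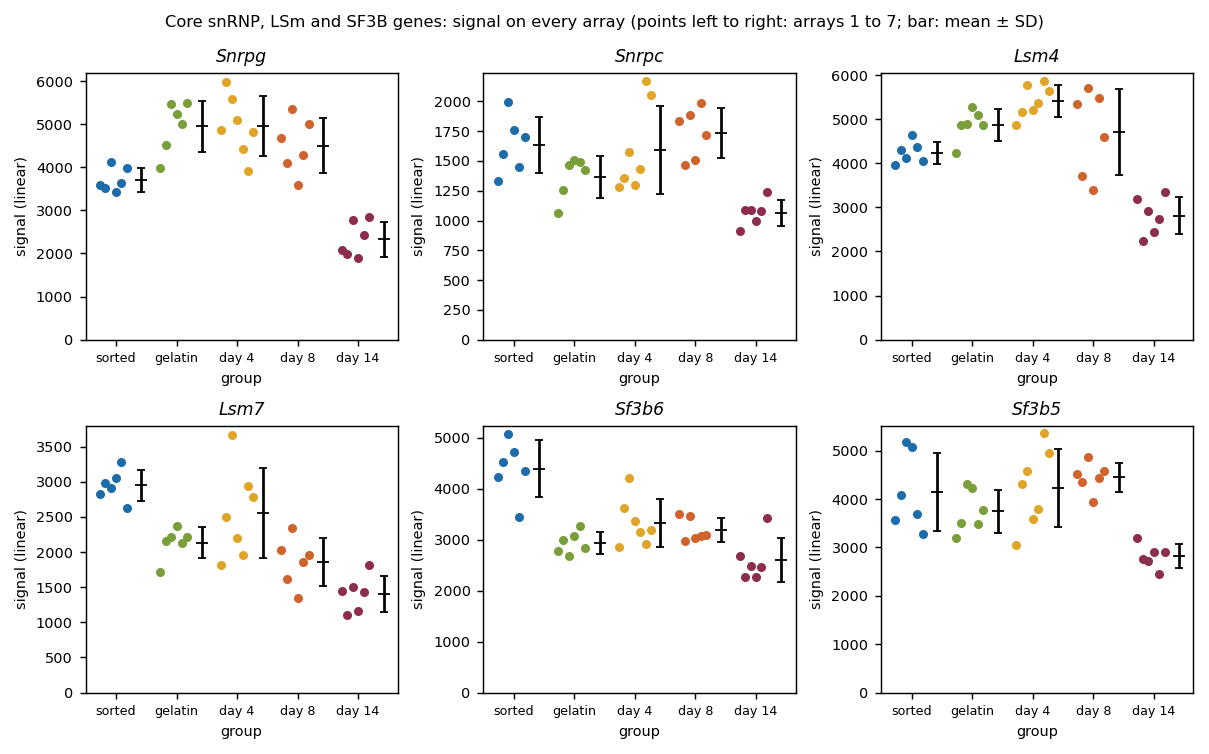
Linear signal on every array for Snrpg, Snrpc, Lsm4, Lsm7, Sf3b6 and Sf3b5 (panels; points from left to right are arrays 1 to 7 of a group, the bar is the mean ± SD). The day 14 points of Snrpg, Snrpc, Lsm4, Lsm7, Sf3b6 and Sf3b5 all lie below the sorted points, for Sf3b6 by a narrow margin. For Snrpg and Lsm4 they are also below all points of the other 3 groups.

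The SF3A and SF3B subunits, which clamp the U2 particle to the branch site, did not move as a unit. At day 14 against sorted cells 3 of 8 were lower and 1 was higher (24.4% and 27% of all genes), and 4 did not pass, with a median of -0.06. Sf3b6, whose product sits next to the branch-point adenosine, read 3437 to 5082 (median 4442) in sorted cells, 2684 to 3269.9 (median 2914) on gelatin, 2861 to 4209.9 (median 3198) at day 4, 2979 to 3504 (median 3082) at day 8 and 2275 to 3426 (median 2467) at day 14. It was lower than in sorted cells at day 4 (-0.40 ± 0.09), day 8 (-0.45 ± 0.10) and day 14 (-0.76 ± 0.10, adjusted p = 2.81e-07), and the sorted and day 14 arrays did not overlap although day 14 array 6 read 3426 against 2275 to 2680 on the other day 14 arrays. Sf3b5, a small subunit of the same complex, went from 3272 to 5177 (median 3881) in sorted cells to 2444 to 3186 (median 2834) at day 14 (-0.54 ± 0.12, adjusted p = 0.000478) and did not pass earlier.

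Other subunits of the same complexes went up. Sf3a3 was higher at day 14, at 3205 to 5519 (median 5193) against 2847 to 3824 (median 3400.4) (0.51 ± 0.13, adjusted p = 0.00214), and the groups overlapped only through array 2 of day 14. Sf3b3 was higher at day 4 (0.54 ± 0.07, adjusted p = 1.01e-06), with 2177 to 3015 (median 2561) against 1646 to 1877 (median 1710.4) and no overlap, and at day 14 it read 1514 to 2121 (median 1661) and did not pass (-0.03 ± 0.07, adjusted p = 0.796). At day 8 Sf3b3 was higher as well (0.21), a call lost with median centring. Sf3a1 was higher at day 4 only among the 3 EB times, and Sf3a2 was slightly lower at all 3. The other probe set of Sf3a2 did not pass at days 4, 8 or 14 (0.13, -0.05 and -0.01). Averaging the Sf3a2 probe sets lost the calls at all 3 times. For Sf3b1, the largest subunit and a frequent target of mutation in blood cancers, the probe set shown passed in none of the 7 comparisons with day-0 groups, whereas its other probe set rose by 2.23 on the log2 scale at day 14; this gene was singled out after its values had been seen.

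PRPF genes also divided. Prpf31, a protein of the U4 and U6 particles whose loss in people causes retinal degeneration, was lower than in sorted cells at all 3 times, with log2 changes of -0.51 ± 0.12, -0.93 ± 0.12 and -0.53 ± 0.12 at days 4, 8 and 14. Sorted arrays read 3146 to 3832 (median 3436) and day 8 arrays 1668 to 1925 (median 1872), and no array of days 4, 8 or 14 reached the sorted range. Prpf31 was already lower on gelatin (-0.55). Against gelatin cells it was lower at day 8 (-0.37), a call lost with quantile normalization, and did not pass at day 4 (0.05) or day 14 (0.02). Prpf6, which bridges the U5 and U4/U6 particles, was higher at day 4 (0.47 ± 0.12, adjusted p = 0.00417) and at day 14 (0.65 ± 0.12, adjusted p = 7.4e-05). Prpf8, the large protein at the centre of the spliceosome, read 934 to 1486 (median 1282) in sorted cells, 1809 to 2400.2 (median 2104) on gelatin, 1768 to 2399 (median 2057) at day 4, 1582 to 2174 (median 1830.1) at day 8 and 1198 to 2119 (median 1342) at day 14. Its values at days 4 and 8 were higher than in sorted cells without overlap (0.76 ± 0.12 and 0.60 ± 0.12, adjusted p = 2.4e-05 and 0.000347), and day 14 overlapped the sorted arrays and did not pass (0.22 ± 0.12, adjusted p = 0.134). Prpf19, a ubiquitin ligase of the spliceosome, and the kinase gene Prpf4b did not pass at any EB time against sorted cells; the range of Prpf4b was wide, 265 to 1728 (median 1009.7) at day 4.

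Of the U2AF genes, U2af1, which reads the last bases of the intron, was higher at day 4 (0.43 ± 0.09, adjusted p = 0.000806) and at day 8 (0.41 ± 0.09, adjusted p = 0.000989). At day 14 it did not pass, with 4698 to 6207 (median 5163) against 4445 to 5989.9 (median 4988) (0.03 ± 0.09, adjusted p = 0.83). Its partner U2af2, which binds the pyrimidine tract, did not pass at any EB time against sorted cells (0.00 ± 0.09 at day 14). U2af1l4, a close relative of U2af1, passed in none of the 7 comparisons (-0.09 ± 0.08 at day 14).

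Among the hnRNP genes, more were higher than lower at day 14. At that time 7 of 16 were higher than in sorted cells and 2 were lower (27% and 24.4% of all genes), with a median of 0.14. Against gelatin cells 7 were higher and 4 lower (22.8% and 24.1% of all genes). Against sorted cells at day 8, 1 was higher and 4 lower (16.9% and 19.4% of all genes), and at day 4, 2 and 1 (12.1% and 14% of all genes). Hnrnph1, which binds runs of G in the pre-mRNA, had a signal of 4876 to 9460.1 (median 8213) in sorted cells, 5321 to 8505 (median 7166) on gelatin, 3524 to 9577 (median 7482) at day 4, 6157 to 10157 (median 7781) at day 8 and 12646 to 14058 (median 12965) at day 14. Every day 14 array was above every array of the other 4 groups, which overlapped one another, and the log2 change against sorted cells was 0.79 ± 0.19 (adjusted p = 0.000924) while those at day 4 (-0.17 ± 0.18) and day 8 (0.04 ± 0.19) did not pass. Hnrnpm, a regulator of splicing in epithelial and mesenchymal cells, showed the same order with 9099 to 12164 (median 11756) in sorted cells, 6036 to 9960.0 (median 7400.0) on gelatin, 6338 to 11675 (median 9726) at day 4, 9116 to 13224 (median 11027) at day 8 and 13342 to 18084 (median 16669) at day 14. Its day 14 arrays were above all others (0.56 ± 0.14 against sorted cells, adjusted p = 0.00158). Hnrnpr read 1579.8 to 2751 (median 2563) in sorted cells, 1429.6 to 2138 (median 1906) on gelatin, 1278 to 3374 (median 2206) at day 4, 1748 to 3896 (median 2071) at day 8 and 3054 to 4399 (median 3962) at day 14. Its day 14 arrays lay above the sorted arrays (0.70 ± 0.20, adjusted p = 0.00404) and overlapped the day 4 and day 8 ranges through 1 high array in each.

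Hnrnph3, a relative of Hnrnph1, moved in both directions. Its signal was 3228 to 5299.6 (median 4716) in sorted cells, 1441 to 2027 (median 1764) on gelatin, 2148 to 3727 (median 2432) at day 4, 3446 to 5634 (median 4807) at day 8 and 4904 to 10074 (median 8521) at day 14. It was lower at day 4 (-0.71 ± 0.16, adjusted p = 0.00164), did not pass at day 8 (0.10 ± 0.16) and was higher at day 14 (0.88 ± 0.16, adjusted p = 6.89e-05), where array 2 overlapped the sorted range. The difference between day 14 and day 4 was 1.59 ± 0.16 (adjusted p = 5.64e-09), and the day 14 arrays were all above the day 4 arrays. Hnrnph2, another relative, was lower at day 8 (-1.07 ± 0.29, adjusted p = 0.00459) and did not pass at day 14 (0.09 ± 0.29), with a wide range of 1054 to 2845 (median 2170.1) in sorted cells.

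Hnrnpa1, the classical repressor of exon inclusion, was higher than in sorted cells at all 3 times, by 0.53 ± 0.11, 0.41 ± 0.12 and 0.39 ± 0.12. The day 8 call was lost without day 8 arrays 1, 3 and 5. The ranges of Hnrnpa1 overlapped, with 4177 to 5533 (median 5143) at day 14 and 2781 to 4587 (median 4054) in sorted cells. Against gelatin cells Hnrnpa1 was lower at day 8 (-0.33) and day 14 (-0.35), calls lost without gelatin arrays 3, 4 and 6. On gelatin it was higher than in sorted cells (0.74). Hnrnpu, a nuclear scaffold protein, was higher at day 14 at low signal, 379 to 600.2 (median 468) against 174 to 296 (median 241) (1.05 ± 0.15, adjusted p = 2.5e-06), and its other probe set, which is also dim, did not pass at day 14 and was lower at day 4 while the probe set shown was higher. Hnrnpll, a regulator of CD45 splicing in lymphocytes, was higher as well (0.36 ± 0.12, adjusted p = 0.0149; 0.0524 without sorted array 5). Hnrnpc, which binds runs of U and shields introns, was lower at day 14, 301 to 382 (median 355) against 391 to 732 (median 558) (-0.68 ± 0.25, adjusted p = 0.0277), a call that was lost without sorted array 2 (-0.60, adjusted p = 0.0674) and without day 14 array 2 or array 4 (-0.64 and adjusted p = 0.052 in both). Hnrnpdl was also lower (-0.28 ± 0.09, adjusted p = 0.0131), but another bright probe set of it read 0.60 (adjusted p = 0.0547), and with its probe sets averaged the value was 0.11 (adjusted p = 0.413). Hnrnpd, Hnrnpk and Hnrnpl passed in none of the 7 comparisons.

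SR protein genes moved both ways. At day 14, 2 of 9 were higher than in sorted cells and 1 was lower (27% and 24.4% of all genes), and 6 did not pass. Srsf9 had a signal of 3979 to 4616 (median 4304) in sorted cells, 3185 to 3813 (median 3526) on gelatin, 3485 to 5559.5 (median 4836) at day 4, 4609 to 6064 (median 5655) at day 8 and 6183 to 7675 (median 6847) at day 14. All day 14 arrays were above the arrays of every other group, and the log2 change against sorted cells was 0.38 ± 0.09 at day 8 and 0.69 ± 0.09 at day 14 (adjusted p = 0.00119 and 2.06e-07). Srsf11 was higher at day 4 (0.41 ± 0.12, adjusted p = 0.0137; 0.0708 in a fit of these groups alone) and at day 14 (0.56 ± 0.13, adjusted p = 0.000535), with 3671 to 4397 (median 3971) at day 14 against 2005 to 3166 (median 2776) and no overlap.

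Srsf6 was the SR gene that fell at day 14. It went from 5474 to 7598 (median 6391) in sorted cells to 3562 to 4625 (median 3956) at day 8 and 3845 to 5112 (median 4336) at day 14, both without overlap (-0.70 ± 0.16 and -0.56 ± 0.16, adjusted p = 0.00108 and 0.0046). Srsf10, a splicing repressor when it is not phosphorylated, was lower at day 4 (-0.91 ± 0.24) and day 8 (-1.03 ± 0.25) and did not pass at day 14 (-0.35 ± 0.25, adjusted p = 0.271), where its other probe set was higher (0.94). At day 4 and day 8 that other probe set did not pass (0.19 and -0.02), and averaging both lost the calls (-0.36 with adjusted p = 0.223, and -0.53 with adjusted p = 0.0632). The day 4 call was also lost in a fit of these groups alone (adjusted p = 0.0557), and the day 8 call without arrays 1, 3 and 5. Srsf5 was lower at day 4 (-0.56 ± 0.18, adjusted p = 0.0268) and day 8 (-0.55 ± 0.19, adjusted p = 0.0259). The day 4 call was lost without sorted array 1, sorted array 2 or day 4 array 7 (adjusted p up to 0.0644), and the day 8 call without sorted array 2 or day 8 array 5 (up to 0.061). The day 4 call was also lost in a fit of these groups alone (adjusted p = 0.141), with the replicate number as a block (0.0762) and without day 4 arrays 6 and 7. The day 8 call was also lost without day 8 arrays 1, 3 and 5, and with the log2 Gapdh ratio as a covariate (adjusted p = 0.106). Srsf1, the founding SR protein, was the most variable of the named members. It read 376 to 1846 (median 1527) in sorted cells, 157 to 1101 (median 596) on gelatin, 156 to 2774 (median 1124) at day 4, 311 to 1999.6 (median 580.2) at day 8 and 1009.8 to 2921 (median 2501) at day 14. These ranges overlapped widely, and none of the EB times passed against sorted cells (0.94 ± 0.60 at day 14, adjusted p = 0.205).

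**Figure D3:**
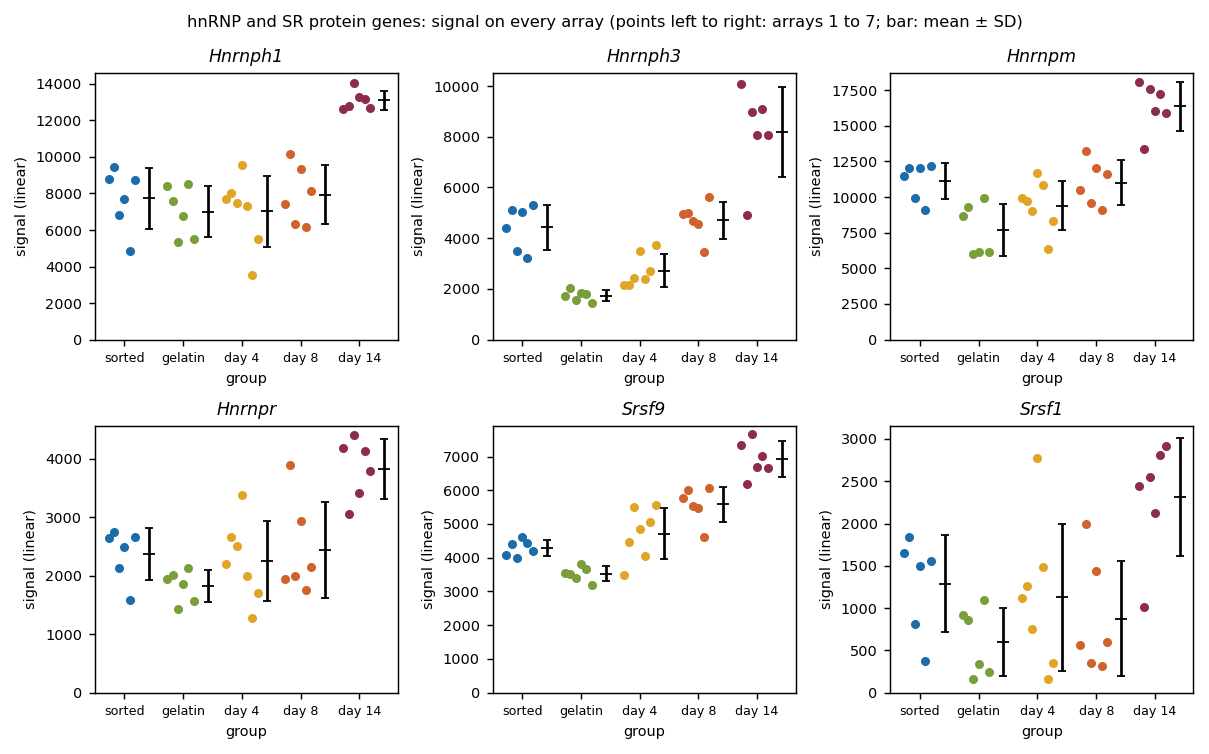
Linear signal on every array for Hnrnph1, Hnrnph3, Hnrnpm, Hnrnpr, Srsf9 and Srsf1 (panels; points from left to right are arrays 1 to 7 of a group, the bar is the mean ± SD). The day 14 points of Hnrnph1, Hnrnpm and Srsf9 lie above every other point, and the wide spread of Srsf1 within each group is visible.

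Smndc1, whose product is a Tudor-domain protein related to the survival motor neuron protein and required for spliceosome assembly, had the largest difference from sorted cells of all members on gelatin, at day 4 and at day 14. Its signal was 669 to 1012 (median 867) in sorted cells, 3864 to 5012 (median 4699) on gelatin, 2220.1 to 5372 (median 4310.0) at day 4 and 3053 to 3856 (median 3234) at day 14. None of the arrays of these other 3 groups came near the sorted range. At day 8 arrays 1, 3 and 5 read 579, 533 and 616, below every sorted array, and arrays 2, 4 and 6 read 4257, 3779.9 and 2854, within the range of day 4. The log2 changes against sorted cells were 2.42 ± 0.39 on gelatin, 2.23 ± 0.37 at day 4, 0.76 ± 0.39 at day 8 and 1.97 ± 0.39 at day 14. A single mean at day 8 describes neither set of arrays, and no test between them was made. Against gelatin cells Smndc1 did not pass at day 4 (-0.20 ± 0.37) or at day 14 (-0.46 ± 0.39).

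At day 4 against sorted cells 13 members were higher and 7 lower, where 12.1% of all genes were higher and 14% lower, and without day 4 arrays 6 and 7, which stood apart, 21 were higher and 11 lower. The arrays did not overlap for 6 members in the higher direction (4.12% of all genes) and 1 in the lower (3.42%). The largest rises among those that passed were, after Smndc1, in Prpf8, Hnrnpu, Sf3b3 and Hnrnpa1, and the largest falls in Srsf10, Hnrnph3, Srsf5, Prpf31 and Snrpb2. With a gene's probe sets averaged, the day 4 calls of Hnrnpu (0.07, adjusted p = 0.773), Srsf10 and Snrpb2 were lost. At day 8, 7 were higher and 17 lower, where 16.9% and 19.4% of all genes were, and without day 8 arrays 1, 3 and 5 the count of lower members was 10. There was no overlap for 3 members in the higher direction (10.6% of all genes) and 8 in the lower (9.74%). The falls were led by Hnrnph2, Srsf10, Prpf31, Srsf6 and Lsm7, of which Hnrnph2 and Srsf10 did not pass without arrays 1, 3 and 5. Day 14 was then compared with the earlier EBs directly, in comparisons added after the values had been seen. From day 8 to day 14, 14 of the 25 hnRNP and SR genes were higher and 1 was lower, against 21.1% higher and 13% lower among all genes, and of the 16 snRNP and LSm genes 2 were higher and 7 lower. Over all members the arrays did not overlap for 11 in the higher and 6 in the lower direction (8.47% and 6.31% of all genes). From day 4 to day 14 the counts were 9 higher and 2 lower of the 25, and 3 higher and 7 lower of the 16, where 27.3% and 20.3% of all genes were called, and the arrays did not overlap for 4 members in the higher and 8 in the lower direction (12.7% and 8.04% of all genes).

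The gelatin cells, from which the EBs were started, differed from the sorted cells at 31 members, 13 higher and 18 lower, where 23.3% of all genes were higher and 18.4% lower. After quantile normalization the split was 11 higher and 25 lower. The arrays did not overlap for 10 members in the higher and 8 in the lower direction (17.4% and 9.95% of all genes). Without gelatin arrays 3, 4 and 6, which stood apart, 10 members were higher and 9 lower. The summed fibroblast markers were 11578 to 20920 on the gelatin arrays and 5721 to 8953 on the sorted arrays, and the summed pluripotency markers 18528 to 24134 and 37306 to 46193, both without overlap. By group mean Col1a1, Col1a2, Thy1 and S100a4 were higher on gelatin, whereas Col3a1, Postn, Lum and Dcn were lower. Of the pluripotency markers Tdgf1 was higher on gelatin (6734 against 6027) and the others were lower. The part of either list in the differences between gelatin and sorted cells was not tested. This comparison coincides with the non-overlapping Gapdh ratios given above, and with the log2 of that ratio as a covariate 5 members were higher and 7 lower. Of all 8251 genes, 1229 were higher and 739 lower in the fit with the covariate. The calls that remained in that fit included Prpf8 (0.77), Hnrnpa1 (0.67), Sf3b3 (0.57), Sf3b6 (-0.49), Srsf5 (-1.05), Hnrnph2 (-1.12) and U2af2 (0.36). U2af2 followed the ratio within the gelatin group: arrays 3, 4 and 6, whose ratios were 6.31 to 6.85, read 7942, 7712 and 7974, and arrays 1, 2 and 5 read 5665, 6065 and 5668. The log2 change of U2af2 against sorted cells was 0.75 ± 0.09 without the covariate.

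Against gelatin cells, the day 4 EBs had 6 members higher and 5 lower (8.33% and 17.8% of all genes), the day 8 EBs 10 and 16 (18.7% and 26.2%) and the day 14 EBs 14 and 22 (22.8% and 24.1%). By family at day 14, 7 of the 16 hnRNP genes were higher and 4 lower, and 2 of the 16 snRNP and LSm genes were higher and 9 lower. The arrays did not overlap for 2 members in the higher and 0 in the lower direction in the day 4 comparison (2.25% and 7.91% of all genes), 5 and 13 in the day 8 comparison (9.93% and 16%) and 10 and 14 in the day 14 comparison (15% and 16.6%; the 14 include Smndc1, which did not pass). Without gelatin arrays 3, 4 and 6 the day 4 split was 2 higher and 1 lower, the day 8 split 8 and 14 and the day 14 split 11 and 13. After quantile normalization the day 4 split was 12 higher and 1 lower and the day 8 split 17 and 12, and with median centring the day 4 split was 10 and 4. With the Gapdh covariate no member passed at day 4 (limma; 3 higher and 1 lower at an unadjusted p under 0.05), the day 8 counts were 2 and 2, and the day 14 counts 9 and 8. Among all 8251 genes the covariate fit still made calls against gelatin cells. Those for day 4 EBs comprised 177 rises against 731 falls. Day 8 EBs had 267 rises against 591 falls, whereas day 14 EBs had 1023 rises against 1101 falls. RNA quality and group cannot be told apart in these comparisons. Calls at day 14 that were present in both fits include Hnrnph3 (2.21 ± 0.16 without and 1.77 with the covariate), Hnrnpm (1.11 ± 0.14 and 0.95), Hnrnpr (1.07 ± 0.20 and 1.17), Hnrnph1 (0.93 ± 0.19 and 1.02) and Srsf9 (0.97 ± 0.09 and 0.67), all higher. The lower ones include Snrpg (-1.09 ± 0.11 and -0.92), Lsm4 (-0.80 ± 0.11 and -0.98), Lsm7 (-0.61 ± 0.14 and -0.93), Lsm3 (-0.44 ± 0.09 and -0.64) and Sf3b3 (-0.51 ± 0.07 and -0.63). Snrpc was lower in both (-0.35 ± 0.13 and -0.62), and its call without the covariate was lost without gelatin array 4 or day 14 array 1 (adjusted p = 0.051 and 0.0576) and without gelatin arrays 3, 4 and 6 together.

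Several differences from gelatin cells that were large did not pass with the covariate. They were Srsf1 (2.21 ± 0.60 without and 2.11 with it, adjusted p = 0.141), Hnrnph2 (1.32 ± 0.29 and 1.16, adjusted p = 0.0817), Hnrnpc (-1.05 ± 0.25 and -0.35, adjusted p = 0.566) and Prpf19 (-1.06 ± 0.17 and -0.36, adjusted p = 0.302). For Srsf1 the 2.21 rests on 1 of 4 probe sets: the other 3 read -0.16, 0.13 and -0.53, none of which passed, and the mean of the probe sets was 0.41 (adjusted p = 0.243). Its call was also lost without gelatin arrays 3, 4 and 6. Prpf19 had a signal of 3770.5 to 5819 (median 4866) on gelatin and 2186 to 2955 (median 2708) in sorted cells. Sf3b2 and Hnrnpul2 turned in sign with the covariate.

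**Figure D4:**
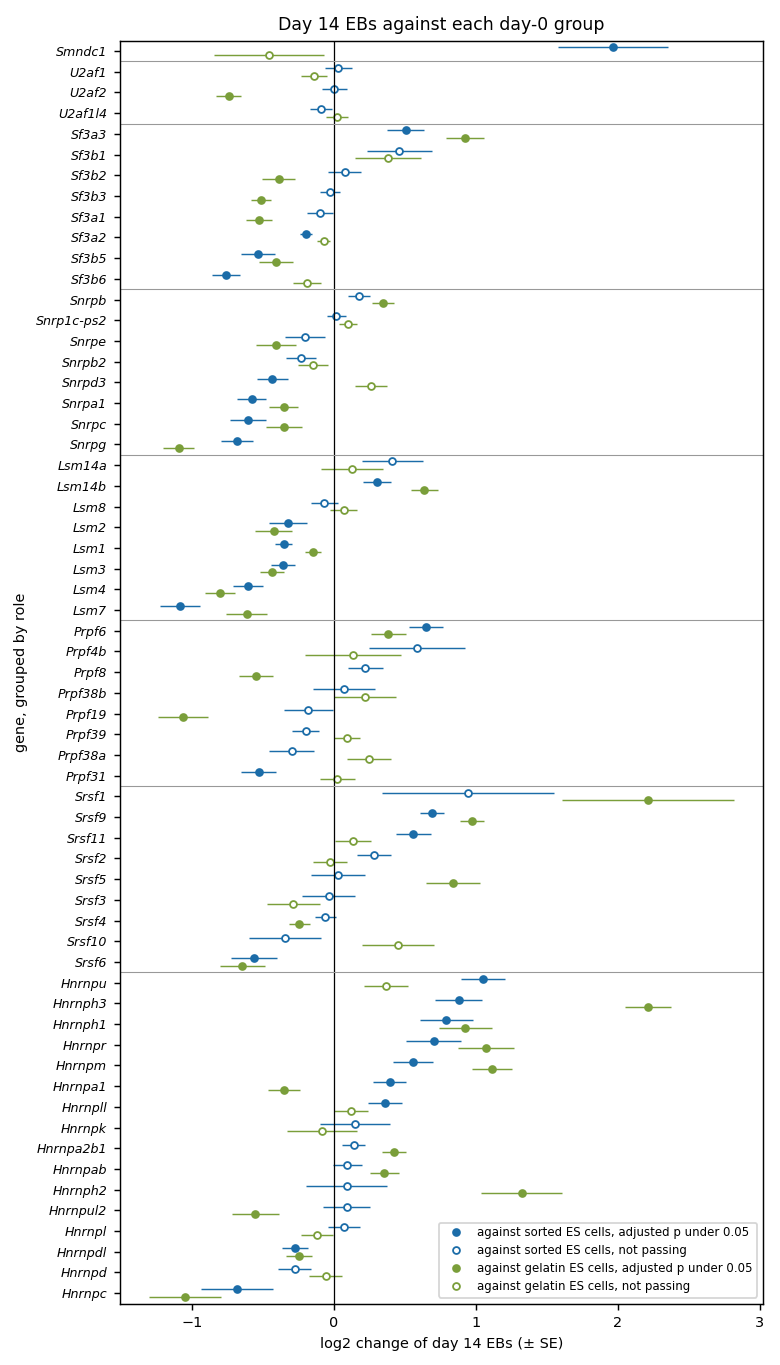
Log2 change (± SE) of day 14 EBs for each member, against sorted ES cells (blue) and against gelatin ES cells (green); filled points have an adjusted p under 0.05. Both comparisons use the same day 14 arrays; Smndc1 is far to the right only against sorted cells, and Snrpg, Lsm4 and Lsm7 lie to the left and Hnrnph1, Hnrnph3, Hnrnpm, Hnrnpr and Srsf9 to the right against both.

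Other genes of the splicing machinery were taken from a list of 98 helicases, kinases, assembly factors and RNA-binding regulators, of which 75 were measured. At day 14 against sorted cells 30 were higher and 11 lower (27% and 24.4% of all genes), 34 failed to reach the threshold, and the median log2 change was 0.13. The 5 largest rises were in Tia1, a U-rich RNA-binding protein (3.23 ± 0.29), Mbnl1, which promotes splice forms of differentiated cells (1.40 ± 0.23), Ptbp2, the neural polypyrimidine tract protein (1.40 ± 0.40), Strap, a component of the SMN complex (1.23 ± 0.30), and Clk4, a kinase of SR proteins (1.22 ± 0.21). The 5 largest falls were in the helicase gene Dhx16 (-1.67 ± 0.20), Xab2 (-0.72 ± 0.12), the tri-snRNP factor Usp39 (-0.62 ± 0.08), the snRNP assembly gene Smn1 (-0.61 ± 0.11) and the hnRNP relative Raly (-0.49 ± 0.18).

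Of the members, 16 have more than 1 probe set, with 19 further probe sets in all, and 12 of the probe sets shown carry a suffix, which marks probes shared with related sequences for 8 of them and relaxed rules of probe choice for the other 4. At day 14 against sorted cells no gene had both the probe set shown and another one called, in the same or in opposite directions. In the comparison of gelatin with sorted cells 4 genes had opposite calls from different probe sets (Hnrnpab, Prpf39, Sf3a2 and Srsf10), and at day 14 against gelatin cells 3 had (Hnrnpa2b1, Hnrnpab and Hnrnpul2). For these genes the direction depends on the probe set. Snrpg, Snrpc, Lsm4, Lsm7, Sf3b6, Hnrnph1, Hnrnph3, Hnrnpm, Hnrnpr, Srsf9 and Smndc1 have 1 probe set each, so no second measurement is at hand here for the members the results rest on.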

How the data were processed

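RNA of 31 samples was amplified in 2 rounds and hybridised to Affymetrix MgU74Av2 arrays. The deposited values are the signal intensity on a linear scale that the authors obtained with dChip normalization and probe-level modeling; its version and model are not given in the sources used here. The methods state biological samples, list 12 days where the labels give 14, and the labels were followed; arrays were taken as separate samples, so p-values measure the spread among these arrays, whose number limits the precision. Of 12488 probe sets 66 controls were left out. Gene symbols came from GEO's platform annotation, which can be old: 10833 tested probe sets have 1 symbol, 396 several and 1193 none.

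A floor was set at the 5th percentile of the whole table (59.59), and 104 of 387128 values were 0. The log2 intensities of all 5 groups went into 1 linear model (limma 3.58.1 in R 4.3.3; lmFit, then eBayes with trended variance), with Benjamini-Hochberg adjustment over 12422 probe sets at 0.05. The model was tested on simulated data. Log2 changes are given ± SE. Members and gene lists were chosen with earlier results of these data known. Named were Smndc1, the 8 members with the largest change in each direction that passed at day 14 against sorted cells, the 5 in each direction in each other comparison with a day-0 group, the 2 of each family with the largest change at day 14, and the 5 other splicing genes in each direction at day 14, in all 38 members. Alternatives were median centring, quantile normalization, floors at the 1st and 25th percentiles, the dimmest 40% left out, fits of 2 groups, a replicate block, array weights, averaging the probe sets of a gene and leaving out each array; the Gapdh covariate and leaving out the arrays that stood apart were added after seeing the data. The labels do not say that replicate numbers pair the samples, and the main fit treated the arrays as unpaired. Figures were drawn with matplotlib 3.10.9.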

Additional observations from a re-analysis of the deposited data

Results flagged for a closer look

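Within-group outliers were looked for among the 38 named members in 190 groups of 6 or 7 arrays, and 9 groups had 1 array far from the others; chance alone flags about 1 in 20 groups. Day 14 array 2 accounted for 4 of the 9. It read 1185 for Hnrnph2 (other arrays 2113 to 2604), 3205 for Sf3a3 (4658 to 5519), 8683 for Srsf5 (11667 to 13451) and 2121 for Sf3b3 (1514 to 1692). Over the probe sets that are not members this array was also farthest from the rest of its group on the first principal component (20.05, others -10.40 to 4.59).

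Day 14 array 6 read 3456 for Lsm3 (others 2370 to 2667) and 3426 for Sf3b6 (2275 to 2680). Day 8 array 2 read 2102 for Hnrnph2 (603 to 1046), gelatin array 1 read 1710 for Lsm7 (2133 to 2367) and sorted array 3 read 1877 for Sf3b3 (1646 to 1731).

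Named members were also picked if they passed against sorted cells in opposite directions at day 4 and day 14 and the difference between the time points passed. The rule picked 4, so that difference is part of the choice and adds no support. From day 4 to day 14 Hnrnph3 changed by 1.59 on the log2 scale, Lsm3 by -0.73, Lsm4 by -0.96 and Snrpg by -1.09.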

How the results depend on the processing

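At day 14 against sorted cells leaving out any 1 array gave 12 to 14 higher and 14 to 16 lower, and with the Gapdh covariate 27 of the 29 calls remained, without Hnrnpc and Lsm2. The 3' to 5' ratio cannot be separated from the gelatin group, and with it as a covariate the counts against sorted cells fell to 5 higher and 7 lower on gelatin, and those against gelatin to 0 and 0 at day 4 (limma; 3 and 1 at an unadjusted p under 0.05), 2 and 2 at day 8 and 9 and 8 at day 14. The counts over all genes in the covariate fit are given above for the comparisons with gelatin cells. For day 14 against sorted cells they were 2226 higher and 1974 lower. For the other alternatives no share of all genes is given, so those counts describe the members alone. With the covariate Sf3b2 turned to 0.063 at day 4 and 0.16 at day 14 against gelatin cells and Hnrnpul2 to 0.12 at day 14. Hnrnpul2 was 0.31 with the mean of its probe sets. For day 4 against gelatin, members higher were 10 with median centring, 12 with quantile normalization, 16 with array weights and 12 without day 4 arrays 6 and 7, and members lower were 1 with quantile normalization, 1 in a fit of both groups alone and 3 without those arrays. Leaving out 1 array there gave 5 to 10 higher (10 without day 4 array 6) and 3 to 6 lower (3 without gelatin array 6). Without gelatin arrays 3, 4 and 6, members lower were 9 on gelatin against sorted cells and 13 at day 14 against gelatin, and at day 4 against gelatin 2 were higher and 1 lower. At day 8 against gelatin 17 were higher with quantile normalization. Against sorted cells at day 4, members lower were 4 in a fit of both groups alone, 14 with array weights and 11 without day 4 arrays 6 and 7, and 21 were higher without them. At day 8 members lower were 27 with array weights and 10 without day 8 arrays 1, 3 and 5. The cause was not tested. With the replicate number as a block, 30 members were called at day 14 against sorted cells, 29 of them the calls of the unblocked fit, and no count moved by over 1.5 times. Arrays of 1 number correlated between -0.351 and 0.494 after removing group means. No comparison with arrays of different numbers is given, so these values cannot decide whether the numbers pair the samples. No member is limited by the floor, and Hnrnpu and Prpf39 are dim.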
